A study of Mus musculus with 4 samples.

Results

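Sele, which encodes E-selectin, and Procr, which encodes the endothelial protein C receptor, were followed in the uterus of pregnant mice kept in hypoxia, a low-oxygen environment, or in normoxia, which the labels give as the control. They are 2 of the 903 genes in the uterus table that the authors deposited, and of the 1696 genes listed for the uterus or the ovary. They were chosen by their uterus log2 fold changes, as entries on the negative side of that table that act at the vessel wall, so these values are given as a description and were not tested. RNA was taken at embryonic day 3.5, shortly before implantation, after an exposure recorded as starting 72 hours after fertilization. RNA of 3 samples was pooled for each of the 4 groups, uterus and ovary under either condition, so each group is 1 library, animals cannot be told apart, and no difference has a replicate check. The sources used here give no strain, age or oxygen level. The tables hold log2 fold changes of at least 2 in size (a fold of 4) and no levels, so the tissue could not be checked against its markers. Their headers do not say which condition is the numerator. Negative values are described as lower in hypoxia, an assumption on which every direction below rests.

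E-selectin is a lectin that appears on the luminal face of endothelial cells after inflammatory signals. It binds sialylated, fucosylated sugars on neutrophils and other leukocytes and slows them into rolling, the step before firm adhesion through integrins. The endothelial protein C receptor binds protein C and presents it to the complex of thrombin and thrombomodulin, which turns it into an anticoagulant protease. Around implantation the uterine vessels widen and become leaky at the site of the embryo, and leukocytes enter the uterine wall.

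On GRCm38, the assembly also called mm10, Sele lies on the plus strand of chromosome 1 from 164048234 to 164057677, with 14 exons in its annotated transcript. Procr lies on the plus strand of chromosome 2 from 155751117 to 155755471, with 4 exons in its longest coding transcript. No other annotated gene overlapped either of them on either strand (0 genes), so reads of an antisense partner could not add to their values. The stretches just before the annotated starts are shown as a description. Both genes were chosen as lower, so their shared direction follows from that choice, and shared control was not tested. They are the 150 bases at chr1:164048084-164048233 for Sele and at chr2:155750967-155751116 for Procr, from RefSeq on GRCm38.p6, both on the plus strand. Capitals mark the motifs that were found.
Sele: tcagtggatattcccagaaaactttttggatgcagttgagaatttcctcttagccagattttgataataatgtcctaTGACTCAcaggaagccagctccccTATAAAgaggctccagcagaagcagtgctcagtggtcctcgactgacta
Procr: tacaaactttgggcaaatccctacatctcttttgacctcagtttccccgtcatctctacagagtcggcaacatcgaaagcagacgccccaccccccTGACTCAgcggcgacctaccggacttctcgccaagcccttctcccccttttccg
Motifs were searched on both strands after these sequences had been seen. TGACTCA, the motif of the AP-1 transcription factors, begins 73 bases before the start of Sele and 54 bases before the start of Procr, in each case on the plus strand. It occurs in 2.84% of 32843 promoter windows of the same length. TATAAA, the TATA box, begins 49 bases before the start of Sele, does not overlap the AP-1 motif, and occurs in 7.58% of the windows. Procr had no TATAAA in its window. ACGTG, a form of the core that hypoxia-inducible factors bind, was in neither window and occurs in 11.2% of windows. A strict 10-base form of the NF-kB consensus was in neither window and occurs in 2.38%. Other forms of these 2 motifs were not searched for, so the windows are not shown to lack such sites. A match is a match of letters only. For Procr the RefSeq start lies 100 bases downstream of the GENCODE start, and the window before the GENCODE start is shown. The windows behind the shares end at RefSeq starts. The 150 bases before the RefSeq start of Procr would not hold the whole TGACTCA. Its match in Procr thus depends on the start chosen.

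Sele had a log2 fold change of -4.24 in the authors' deposited table, which is an 18.8-fold lower value in hypoxia. Dividing every listed ratio by 1 factor shared within the uterus, 0.995, left ratios of whole numbers, here called terms, and those of Sele were 4 in hypoxia to 75 in normoxia. Read as read counts with 1 added, which no source states, these are 3 reads in the hypoxia library and 74 in the normoxia library. Almost all Sele reads thus lay in the normoxia library, and the hypoxia library held 3.90% of them. The ratio of these reads, normoxia over hypoxia, was 24.8, with an exact Clopper-Pearson 95% interval of 8.16 to 123. The interval covers counting error only, not the spread between animals or the choice of Sele by this value. The shared factor was close to 1, so scaling between the libraries moved the ratio little. A factor common to both terms is lost in this reading, so the true counts could be larger and the interval narrower.

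Procr had a log2 fold change of -2.39 in the authors' deposited table, a 5.25-fold lower value in hypoxia. Its terms were 131 in hypoxia to 684 in normoxia, which reads as 130 and 683 reads. The ratio of reads was 5.28, with a counting interval of 4.37 to 6.42. Its hypoxia library held 16.0% of the Procr reads. Procr therefore stood on more inferred reads than Sele, and its interval was narrower. In the authors' deposited table the distance between the log2 fold changes of the 2 genes was 1.84.

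**Figure D1:**
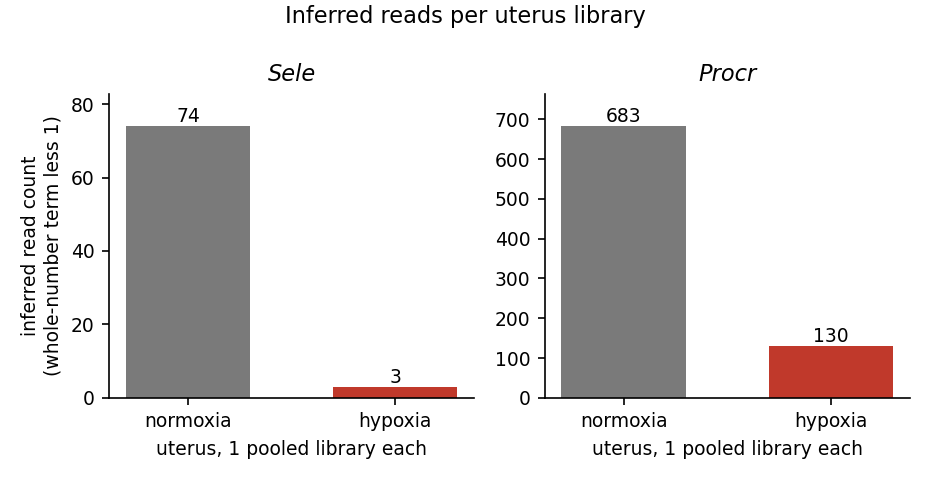
Inferred read counts (vertical axes, whole-number term less 1) of Sele and Procr in the normoxia and hypoxia libraries of the uterus, 1 pooled library each and so without error bars. Sele goes from 74 to 3 reads and Procr from 683 to 130, on separate scales that both start at 0.

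Per length of transcript Procr had the higher inferred level in both libraries. With 2912 bases of annotated transcript, Sele had 25.4 inferred reads per kilobase in normoxia and 1.03 in hypoxia. With 1597 bases in its longest coding transcript, Procr had 428 and 81.4. The inferred level of Procr in hypoxia was thus above that of Sele in normoxia. A factor common to both terms of a gene is lost, so the order of the genes is not fixed.

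Of all 55536 annotated genes, 1.63% were listed in the uterus and 0.742% were listed as lower, and of the 22028 protein-coding genes 0.658% were listed as lower. Not every annotated gene had reads enough to be listed, so these shares are low estimates for the genes that could have been. Both genes are lower by choice, so nothing is read from their count against these shares. Among the 412 lower genes Sele had the fourth lowest value in the authors' deposited table, at rank 4, and Procr stood at rank 142. The genes below Sele were Krt83, a hair keratin, Cpa1, a pancreatic carboxypeptidase, and Actc1, the cardiac actin gene, all 3 chosen after their values were seen. Cpa1 and Actc1 had a term of 1 in hypoxia. Among the 115 lower genes whose smaller term was above 1, Sele had rank 2, after Krt83 alone, and Procr had rank 49. By the sum of the terms the order was turned round. Procr had 815, the eighth highest (rank 8) of the lower genes, Sele had 79, at rank 28, and the median over the lower genes was 7. The median log2 fold change of the lower genes in the authors' deposited table was -2.33.

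**Figure D2:**
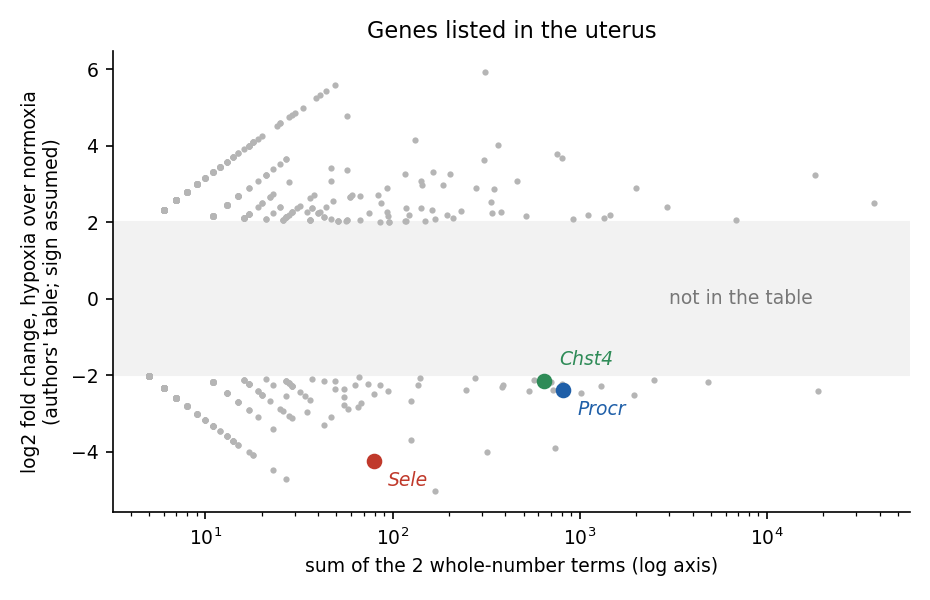
Log2 fold change of each of the 903 genes in the authors' deposited uterus table (vertical axis, hypoxia over normoxia, sign assumed) against the sum of its 2 whole-number terms (horizontal log axis). Sele lies below nearly all genes, and Procr and Chst4 lie near the threshold of -2 but far to the right, at sums of 815 and 647; the diagonal rows on the left are genes with a term of 1.

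Neither Sele nor Procr was listed in the ovary (0 of the 2 genes), where 1.54% of annotated genes were listed and 0.758% were listed as lower. A gene missing from a table changed by less than a fold of 4 or was left out for another reason, such as too few reads, and these cannot be told apart. Whether the uterus and the ovary differed in either gene was not tested.

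Genes of leukocyte adhesion, selectin ligands in general and leukocyte integrins were read from fixed lists. Of the 20 leukocyte adhesion genes, 19 had an annotated symbol and 1, Sele, was listed in the uterus. Of all protein-coding genes, 1.53% were listed in the uterus and 1.01% in the ovary. Nothing is therefore read from a list this short with 0 or 1 listed gene. P-selectin (Selp), Vcam1 and Icam1, which act beside E-selectin in leukocyte capture and firm adhesion, were not listed in either tissue. Of the 15 genes for selectin ligands and the enzymes that build them, 1 was listed in the uterus. It was Chst4, a sulfotransferase that modifies ligands of L-selectin, not E-selectin, in the high endothelial venules of lymph nodes. Chst4 had a log2 fold change of -2.16 in the authors' deposited table, on 118 inferred reads in hypoxia and 527 in normoxia. The ratio of its reads, normoxia over hypoxia, was 4.49, with a counting interval of 3.67 to 5.53. Chst4 thus had the direction of Sele and a smaller ratio, and a link between them was not tested. None of the 7 leukocyte integrin genes was listed (0 genes).

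For the protein C pathway and other anticoagulants, 1 of 19 genes was listed in the uterus, Procr itself, chosen at the outset. Of all protein-coding genes, 1.53% were listed in the uterus and 1.01% in the ovary. Nothing is therefore read from a list this short with 0 or 1 listed gene. Thbd, which encodes thrombomodulin, Proc, which encodes protein C, its cofactor gene Pros1 and the thrombin receptor gene F2r were not listed in either tissue. Of the 25 genes of coagulation and fibrinolysis, none was listed in the uterus (0 genes) and 1 in the ovary. That was Kng1, which encodes kininogen, at -2.07 in the authors' deposited table, on 0 and 3 inferred reads, whose counting interval included a ratio of 1.

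None of the 33 endothelial identity genes, among them Cdh5, Kdr, Tek and Tie1, and none of the 5 lymphatic endothelial genes was listed in either tissue (0 genes). Of all protein-coding genes, only 1.53% were listed in the uterus and 1.01% in the ovary. An empty list of this length is therefore not read as a sign that its genes were unmoved. Bulk RNA does not show which cells the Sele and Procr reads came from, so an endothelial source was not tested for either gene. In bulk RNA, fewer endothelial cells and less RNA per endothelial cell cannot be told apart. Changes of the identity genes below a fold of 4 are unseen here. None of the 22 genes of the oxygen response and vessel growth was listed in either tissue (0 genes), and the same limit of a short list holds. Of the 25 cytokine signals to endothelium and their targets, 1 was listed in the uterus. Il13, a type 2 cytokine that acts on endothelial and epithelial cells, had 3.16 in the authors' deposited table on 8 inferred reads in hypoxia and 0 in normoxia. Its counting interval for the ratio, hypoxia over normoxia, began at 1.70 and had no upper end, so the size of the fold is not fixed. Tnf, Il1a and Il1b, whose products induce E-selectin on cultured endothelium, were not listed. The fixed list did not hold every gene of the TNF and IL-1 families. Outside it, and chosen after their values were seen, Lta had 2.32, Il1f6 4.77 and Il1f9 2.80 in the authors' deposited uterus table. Their terms, hypoxia to normoxia, were 5 to 1, 55 to 2 and 7 to 1. Lta had the same terms as the red cell gene Slc4a1, which read as 4 inferred reads in hypoxia and 0 in normoxia. The counting interval for such reads, hypoxia over normoxia, began at 0.657 and so included a ratio of 1. The part of Lta, Il1f6 and Il1f9 in the value of Sele was not tested. Over all 9 vessel wall lists, 4 of 169 annotated genes were listed in the uterus (2.37%), 3 lower and 1 higher, beside 1.53% of all protein-coding genes, and 2 of these are the genes chosen at the outset. In the ovary 2 of 169 were listed (1.18%), Kng1 and Il4, beside 1.01% of all protein-coding genes. As Sele and Procr were themselves members, the uterus share is not independent of their choice.

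Markers of other cells that meet the vessel wall were also read. Of the 9 neutrophil markers 3 were listed in the uterus, all higher, beside 0.884% of all annotated genes. S100a8 had 2.30 and its calprotectin partner S100a9 had 2.04, and the chemokine receptor gene Cxcr2 had 2.36, in the authors' deposited table. Their inferred reads, hypoxia against normoxia, were 192 and 38 for S100a8, 94 and 22 for S100a9, and 30 and 5 for Cxcr2. The other 6 markers, Mpo, Elane, Ly6g, Camp, Ngp and Retnlg, were not listed. Of the 5 platelet markers, 1 was listed, the chemokine gene Ppbp, at -2.18 in the authors' deposited table on 1 and 8 inferred reads. Of the 7 red cell markers, 1 was listed, the anion exchanger gene Slc4a1, at 2.32 in the authors' deposited table on 4 and 0 inferred reads, whose counting interval included a ratio of 1. No gene of the pericyte and smooth muscle, general leukocyte or epithelial lists was listed (0 of 8, 0 of 6 and 0 of 4). The part of these cells in the values of Sele and Procr was not tested. Of all protein-coding genes, 1.53% were listed in the uterus, so an empty list this short is not read as a result.

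**Figure D3:**
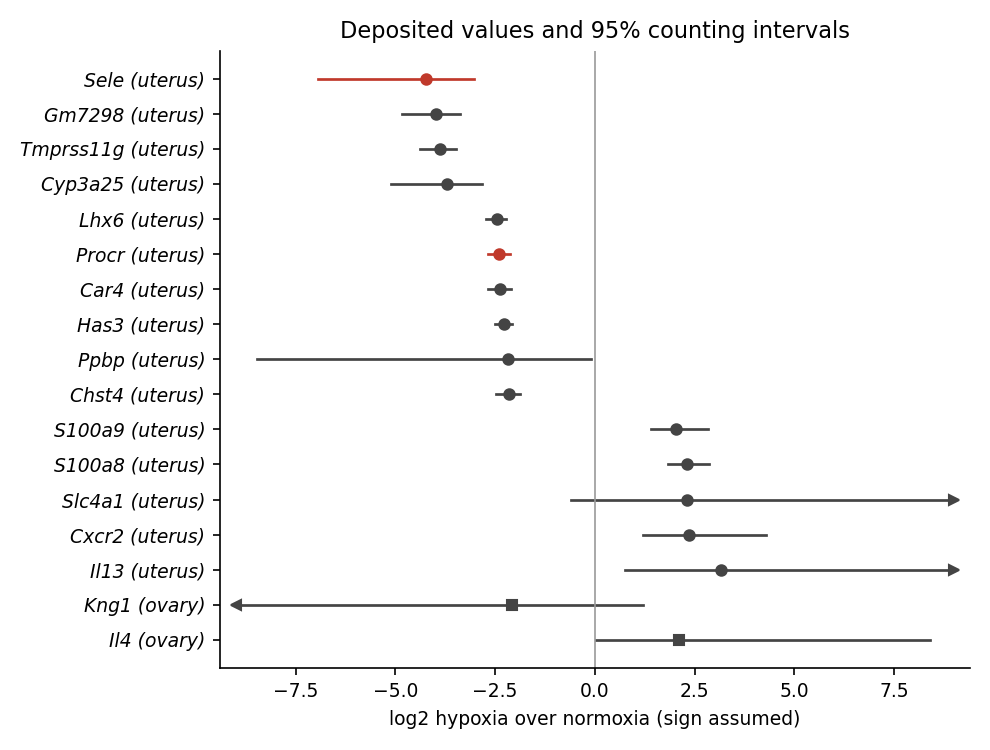
Log2 fold change in the authors' deposited tables (points, hypoxia over normoxia, sign assumed; circles uterus, squares ovary) for Sele and Procr (red), each listed member of the fixed gene lists and the 3 genes closest in value to each of the pair. Lines are 95% Clopper-Pearson intervals of the inferred reads, counting error only, with arrows where a library had 0 reads; Sele and Procr stay below 0, as does Chst4, while Slc4a1 and Kng1 cross 0.

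The neighbours of Procr on the chromosome were checked next. None of its 8 nearest protein-coding genes, 4 on each side, was listed in the uterus or the ovary (0 of 8). Of all protein-coding genes, 1.53% were listed in the uterus and 1.01% in the ovary, so this absence is not read as a result. The nearest downstream neighbour, the membrane-bound matrix protease gene Mmp24, begins 24.2 kb from the start of Procr.

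The genes most like each of the pair were taken as the 3 protein-coding genes with the closest log2 fold change of the same sign, among those with at least 0.5 of its term sum. This likeness rests on 1 contrast of 2 libraries, and nothing is said of shared function or control. For Sele, out of 28 candidates, they were Gm7298 at -3.99, the membrane serine protease gene Tmprss11g at -3.89 and the cytochrome P450 gene Cyp3a25 at -3.69 in the authors' deposited table. The intervals of all 3 overlapped that of Sele, so their order is not fixed by these counts. Cyp3a25 belongs to a family with near-identical copies, and its value is uncertain. For Procr, out of 12 candidates, they were the carbonic anhydrase gene Car4 at -2.38, the homeobox gene Lhx6 at -2.46 and the hyaluronan synthase gene Has3 at -2.28 in the authors' deposited table. Their intervals also overlapped that of Procr, with reads between 115 and 220 in hypoxia and between 598 and 1071 in normoxia.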

How the data were processed

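Per the submitters' processing notes, the tools were DESeq2 2.11.40.7, HTSeq 0.9.1, HISAT2 2.2.1 and FastQC 0.73, with build mm10. For each tissue the authors deposited log2 fold changes, per the file headers, for genes past an absolute value of 2, with no counts or totals, so depth is unknown. Per the labels' protocols, libraries were strand-specific and poly(A)-selected. The sources used here give no counting options. Terms were the smallest whole numbers that gave each ratio after division by 1 shared factor, at a relative tolerance of 5e-14, and the factor was the one that left the smallest median sum of terms. The step was tested on simulated data. Terms less 1 were taken as reads, and intervals are exact Clopper-Pearson at 95%, covering counting error only. Positions came from GENCODE M21, promoters from RefSeq. The named genes were Sele and Procr, every listed member of the fixed lists, and the 3 closest genes to each. A withheld item is not reported here. The genes and lists were chosen with earlier results of these data known. Alternatives were a pseudocount of 5, terms as reads, and a threshold of 3. Python 3.11.15, NumPy 2.4.6, pandas 2.3.3, SciPy 1.17.1 and Matplotlib 3.10.9 were used.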

Additional observations from a re-analysis of the deposited data

How the results depend on the processing

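With a pseudocount of 5 the log2 value of Sele was -3.31 and that of Procr -2.36, and with no pseudocount, a setting chosen after seeing the data, they were -4.63 and -2.40; all stayed inside the counting intervals. With the terms themselves as reads the intervals were 7.06 to 70.9 for Sele and 4.35 to 6.37 for Procr. The count of 412 lower uterus genes was 53 at a threshold of 3, 145 among protein-coding genes and 273 without ratios of 1 to 4. The vessel wall genes listed at a threshold of 3 were 2 of 4 in the uterus, Sele and Il13, and 0 of 2 in the ovary; fewer genes follow from each stricter choice. No paired analysis was possible because each group is 1 library. Leaving out a library was likewise not possible. Sele rests on 3 hypoxia reads, which limits the precision of its fold.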

Other observations

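The genes here were chosen after their values were seen. Adtrp, which encodes a protein known in human endothelial cells to regulate tissue factor pathway inhibitor, had 2.23 in the authors' deposited uterus table, on 32 inferred reads in hypoxia and 6 in normoxia. It had the direction opposite to Procr, and its counting interval for the ratio, hypoxia over normoxia, was 2.19 to 15.5. Ccr7, the chemokine receptor that guides lymphocytes and dendritic cells across lymphatic and high endothelium, had 2.67 in the authors' deposited table on 50 and 7 inferred reads, with an interval of 3.21 to 18.6. The decidual granzyme genes Gzmd and Gzme had -2.38 and -2.11 in the authors' deposited table, on 39 and 206 and on 6 and 29 inferred reads, hypoxia first. Il13 in the uterus and Il4 in the ovary, at 3.16 and 2.10 in the authors' deposited tables, both rest on 8 reads in hypoxia, against 0 and 1 in normoxia. The pair are neighbours on chromosome 11, 12.7 kb apart.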
